A study of Mus musculus with 8 samples.

Results

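The clade B serpin genes of mouse chromosome 1 were followed in sorted hair matrix keratinocytes. Of these, 9 were taken by their names in both tables: Serpinb2, Serpinb3a, Serpinb3b, Serpinb3c, Serpinb3d, Serpinb5, Serpinb7, Serpinb8 and Serpinb12. They are 9 of 29647 genes listed for untreated mice and of 29246 genes listed for 5-aza-treated mice. The 9 were selected on their measured values, with their FPKM and genotype differences in these libraries known, so their levels and differences are given as a description and carry no test.

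Hair matrix keratinocytes divide in the hair bulb, and their offspring form the growing hair and the sheath that encloses it. RNA was sequenced in 4 groups of 2 libraries, all from mice at postnatal day 4.5. The groups were untreated Tet2/Tet3 DKO with Krt14-Cre, untreated wild type (WT), 5-aza-treated Tet2/Tet3 DKO with Krt14-Cre, and 5-aza-treated WT. Krt14-Cre acts in basal keratinocytes and their descendants, which include the hair matrix, so other skin cells of the DKO mice are not its target. TET2 and TET3 oxidise methylated cytosine in DNA, and 5-aza blocks DNA methyltransferases. Mice given 5-aza received 50 µg subcutaneously at postnatal day 2.5. It is not stated if the libraries of a group came from separate animals, if WT mice carried Cre, or which of the 2 RNA and library kits named in the labels was used for which group.

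Serpins inhibit proteases by a trap: the protease cuts a loop of the serpin, the serpin changes shape, and the enzyme stays bound and inactive. Clade B serpins have no classical secretion signal and work mostly inside the cell. Many are made in stratified epithelia such as epidermis and the outer layers of the hair follicle, where they restrain the proteases of differentiating and dying keratinocytes. The mouse Serpinb3 genes are paralogues related to human SERPINB3 and SERPINB4, the squamous cell carcinoma antigens.

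By the GENCODE M21 annotation of GRCm38, the 9 genes are protein-coding and lie on chromosome 1. Serpinb5 (ENSMUSG00000067006, chr1:106861173-106883348, + strand) comes first and Serpinb8 (ENSMUSG00000026315, chr1:107590006-107610484, + strand) last. Between them, in order, lie Serpinb12 (chr1:106934449-106957080, +), Serpinb3a (chr1:107045587-107052303, −), Serpinb3d (chr1:107078167-107083506, −), Serpinb3b (chr1:107153940-107278361, −), Serpinb3c (chr1:107271201-107278371, −), Serpinb7 (chr1:107399655-107452689, +) and Serpinb2 (chr1:107511423-107535478, +). The 4 Serpinb3 paralogues are the only members on the − strand. One annotated Serpinb3b transcript starts within the first exon of Serpinb3c, so the 2 gene models share 35 exonic bases on the same strand. Serpinb2 shares 291 exonic bases with Serpinb10, also on the same strand.

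The 250 bases before the RefSeq start site (GRCm38.p6) are shown for the Serpinb3 paralogues that differed most in level between genotypes, to show how alike they are, and for Serpinb8 and Serpinb5, the most abundant members. Sequences run 5′ to 3′ on the strand of the gene. Capitals mark CG dinucleotides, TATAAA (the core of a TATA box) and TGANTCA (the AP-1 motif), each of the last 2 searched on both strands. The windows are chr1:107161115-107161364 (−) for Serpinb3b, chr1:107278372-107278621 (−) for Serpinb3c, chr1:107052304-107052553 (−) for Serpinb3a, chr1:107589756-107590005 (+) for Serpinb8 and chr1:106860925-106861174 (+) for Serpinb5.
Serpinb3b: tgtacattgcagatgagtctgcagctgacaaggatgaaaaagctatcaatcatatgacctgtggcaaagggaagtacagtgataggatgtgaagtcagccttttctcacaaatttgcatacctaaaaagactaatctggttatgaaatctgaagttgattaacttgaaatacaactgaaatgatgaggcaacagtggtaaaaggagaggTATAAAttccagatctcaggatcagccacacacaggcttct
Serpinb3c: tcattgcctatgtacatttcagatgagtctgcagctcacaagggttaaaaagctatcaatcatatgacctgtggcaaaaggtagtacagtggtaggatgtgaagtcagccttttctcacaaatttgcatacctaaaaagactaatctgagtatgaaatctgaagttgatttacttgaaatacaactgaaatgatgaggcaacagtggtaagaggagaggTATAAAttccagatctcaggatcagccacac
Serpinb3a: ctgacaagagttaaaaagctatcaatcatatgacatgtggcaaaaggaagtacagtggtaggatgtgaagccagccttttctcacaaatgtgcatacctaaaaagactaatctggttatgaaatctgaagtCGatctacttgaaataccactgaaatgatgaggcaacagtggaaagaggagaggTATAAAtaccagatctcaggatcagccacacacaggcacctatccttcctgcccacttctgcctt
Serpinb8: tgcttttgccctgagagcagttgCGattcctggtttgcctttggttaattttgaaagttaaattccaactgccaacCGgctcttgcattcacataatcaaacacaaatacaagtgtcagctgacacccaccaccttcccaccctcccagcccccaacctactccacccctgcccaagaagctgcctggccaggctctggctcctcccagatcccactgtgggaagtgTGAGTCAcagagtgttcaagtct
Serpinb5: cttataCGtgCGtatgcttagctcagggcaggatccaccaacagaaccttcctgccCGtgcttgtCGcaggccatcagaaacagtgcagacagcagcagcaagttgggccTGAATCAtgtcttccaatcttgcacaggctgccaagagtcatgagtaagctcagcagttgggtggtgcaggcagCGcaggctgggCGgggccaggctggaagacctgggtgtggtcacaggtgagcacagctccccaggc

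The upstream windows of Serpinb3b and Serpinb3c were identical at 229 of 240 aligned bases, those of Serpinb3a and Serpinb3c at 201 of 213, and those of Serpinb3a and Serpinb3b at 207 of 222. The Serpinb3d window had no aligned stretch longer than 12 bases with any of them, although its transcript was 89.2% identical to that of Serpinb3a. All 9 members had a RefSeq window. TATAAA was found in 7 of the 9 first windows, the exceptions being Serpinb5 and Serpinb8, against 12.4% of 32851 windows of the same length. The windows of Serpinb3a, Serpinb3b and Serpinb3c are near copies, so their matches are not separate finds. The Serpinb12 match lay at position -220 from the start, and those of Serpinb3d and Serpinb7 were on the opposite strand. TGANTCA was found in the first windows of 5 members (Serpinb2, Serpinb5, Serpinb7, Serpinb8 and Serpinb12), against 6.75% of all windows. CG dinucleotides, the sites of DNA methylation, were counted in the first windows. They numbered 0 in Serpinb3b, Serpinb3c, Serpinb3d, Serpinb2 and Serpinb7, 1 in Serpinb3a, 2 in Serpinb8, 3 in Serpinb12 and 6 in Serpinb5. A second window of Serpinb2 held 3 CG, and that of Serpinb12 held 0 CG and no TGANTCA. The median over all windows was 6, with quartiles of 2 and 16. These matches describe letters in a window and do not show a bound factor or a methylated site.

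The libraries held 19528602 to 22837436 reads in untreated mice and 39493929 to 58353167 after 5-aza, of which 55.8% to 62.0% and 38.4% to 42.4% lay in listed genes. Tet3 was lower in DKO, at 6.92 and 7.31 FPKM in untreated DKO, against 11.8 and 11.4 FPKM in untreated WT, and at 6.54 and 5.99 FPKM in 5-aza DKO, against 10.4 and 11.5 FPKM in 5-aza WT. Tet2 was 2.72 and 2.55 FPKM in untreated DKO, against 3.23 and 3.28 FPKM in untreated WT, and 1.58 and 1.56 FPKM in 5-aza DKO, against 1.81 and 2.00 FPKM in 5-aza WT. All 7 hair matrix and shaft markers in the table were detected, with a summed level of 188 to 229 FPKM in untreated DKO, 128 to 183 FPKM in untreated WT, 226 to 239 FPKM in 5-aza DKO and 189 to 203 FPKM in 5-aza WT. Fibroblast markers (6 of 6 detected) summed to 67.8 to 144 FPKM over the 4 libraries of 5-aza-treated mice, against 1133 to 1348 FPKM in untreated DKO and 465 to 1255 FPKM in untreated WT.

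In untreated mice Serpinb3b, Serpinb3c and Serpinb8 stood well apart between DKO and WT hair matrix keratinocytes, with more RNA in DKO. Serpinb3a, Serpinb2 and Serpinb5 were higher in both DKO libraries by a margin nearer to the spread between replicates, Serpinb3d rested on 6 reads in all, and Serpinb12 and Serpinb7 overlapped between genotypes. Both DKO libraries lay above both WT libraries for 7 of the 9 genes. The same held for 24.3% of the 17448 genes that passed a filter on low reads. Of the 9 genes, 8 passed that filter and Serpinb3d did not, and 6 of those 8 were higher in both DKO libraries. No member passed limma's test at an adjusted p under 0.05, where 1 gene in all did (0.00573%), the inner root sheath keratin Krt28, with less RNA in DKO. Before adjustment, 1190 of the 17448 genes were higher in DKO with a limma p under 0.05 and 807 were lower. Of the 9, 2 genes (Serpinb3b and Serpinb8) had an adjusted p under 0.05 in the authors' deposited table, against 1.28% of all listed genes. Because these values took part in choosing the genes, nothing is read from those counts.

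**Figure D1:**
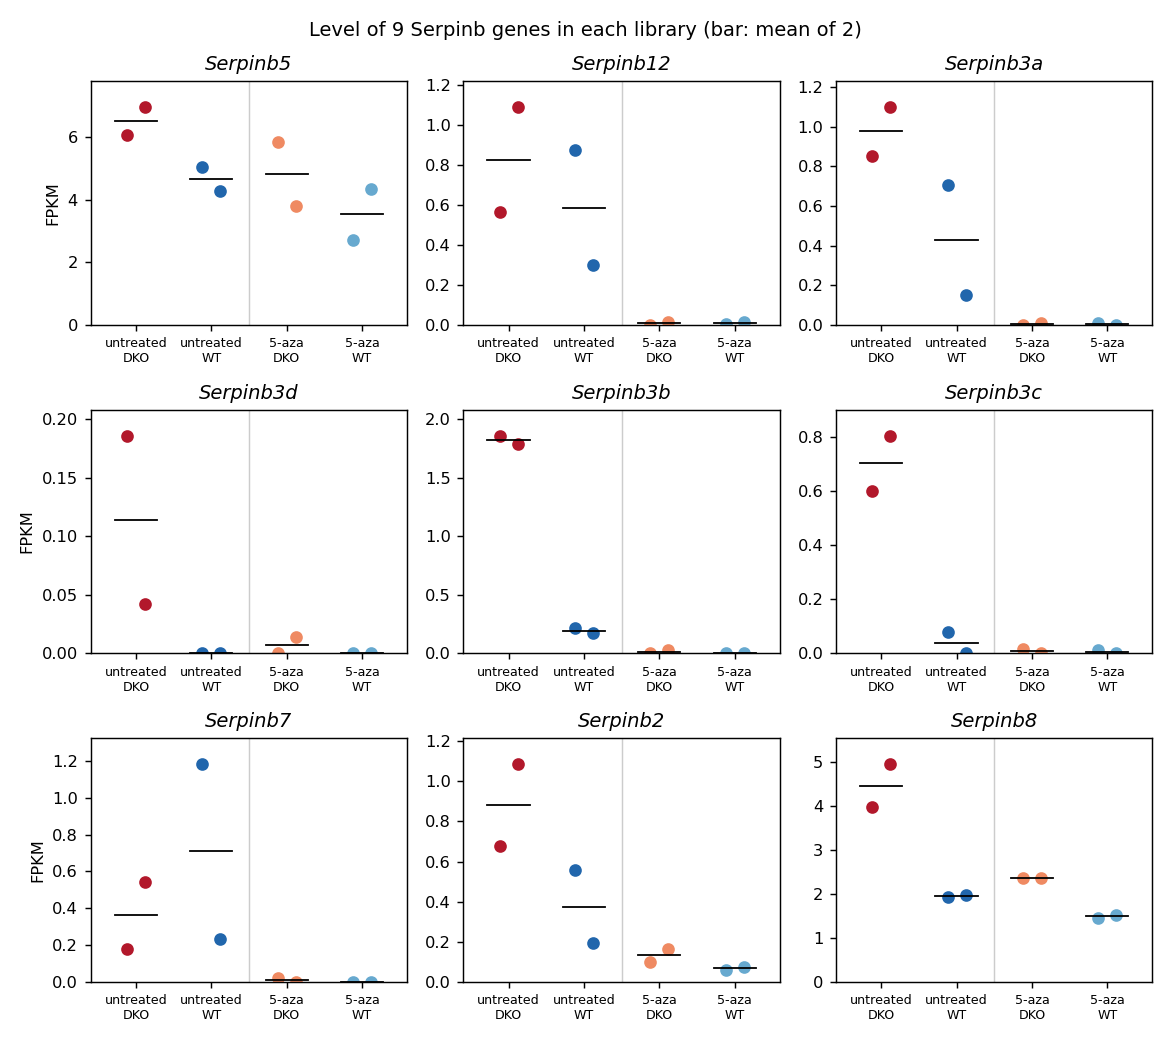
FPKM (fragments per kilobase, scaled to the library's reads) of each of the 9 Serpinb genes in each library, by group, with the mean of 2 libraries as a bar; each panel starts at 0 and has its own scale. Serpinb3b stands at 1.79 to 1.86 FPKM in untreated DKO and at 0.175 to 0.214 FPKM in untreated WT, and after 5-aza only Serpinb5 and Serpinb8 are above 1 FPKM.

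Serpinb3b had the largest ratio of the members with more than 3 WT reads. It measured 1.86 and 1.79 FPKM in untreated DKO, against 0.214 and 0.175 FPKM in untreated WT. These values rest on 135 and 114 reads in DKO, against 16 and 13 reads in WT. The groups were far apart and replicates of each genotype were close, and the ratio of the means was 9.37. The difference in log2(FPKM + 1), DKO minus WT, was 1.24 ± 0.07 (SE, n = 2 each), a scale that understates the change of a low gene. Leaving out any 1 library kept it between 1.22 and 1.26. In the authors' deposited table, its log2 fold change, with the sign turned to DKO over WT, was 3.20 with an adjusted p of 3.65e-09.

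Serpinb3c, next to Serpinb3b on the chromosome, was nearly silent in WT. It had 22 and 26 reads in untreated DKO, against 3 and 0 reads in untreated WT, or 0.600 and 0.806 FPKM in DKO against 0.0796 and 0 FPKM in WT. The ratio of summed reads per library total was 17.5, with an exact 95% interval of 5.64 to 87.8 that covers counting error only. Serpinb3d had 5 and 1 reads in untreated DKO, against 0 and 0 reads in untreated WT. Set against a floor of 3 reads over the WT group, its 6 reads in DKO gave a ratio of 2.19 per library total. That ratio takes the DKO reads as exact, so it is not a lower bound, and on so few reads it says little of the size.

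Serpinb3a was also higher in untreated DKO, but its WT libraries disagreed. It measured 0.854 and 1.10 FPKM in untreated DKO, against 0.708 and 0.150 FPKM in untreated WT, where replicate 1 was close to the DKO level and replicate 2 was not. The log2 difference was 0.49 ± 0.20 (SE, n = 2 each). It was 0.21 without WT replicate 2 and 0.78 without WT replicate 1.

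Taken as a family, the 4 Serpinb3 paralogues had 223 and 210 reads in untreated DKO, against 71 and 24 reads in untreated WT. As RPM, reads scaled to the library total, this was 10.4 ± 0.504 RPM in DKO and 2.08 ± 1.45 RPM in WT (SD, n = 2 each), a ratio of 5.00. The ratio was 3.34 without WT replicate 2 and 9.87 without WT replicate 1. Serpinb3b gave 60.5% and 54.3% of these reads in DKO, against 22.5% and 54.2% in WT, so that WT replicate 1 alone had a lower share than the others. The paralogues are alike enough for reads to be misplaced among them. Their transcripts were 86.5% to 94% identical in pairs, but no window of 150 bases was shared between 2 of the 4 genes, and 8.09% or less of the windows of 75 bases of each gene occurred in any other gene.

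**Figure D2:**
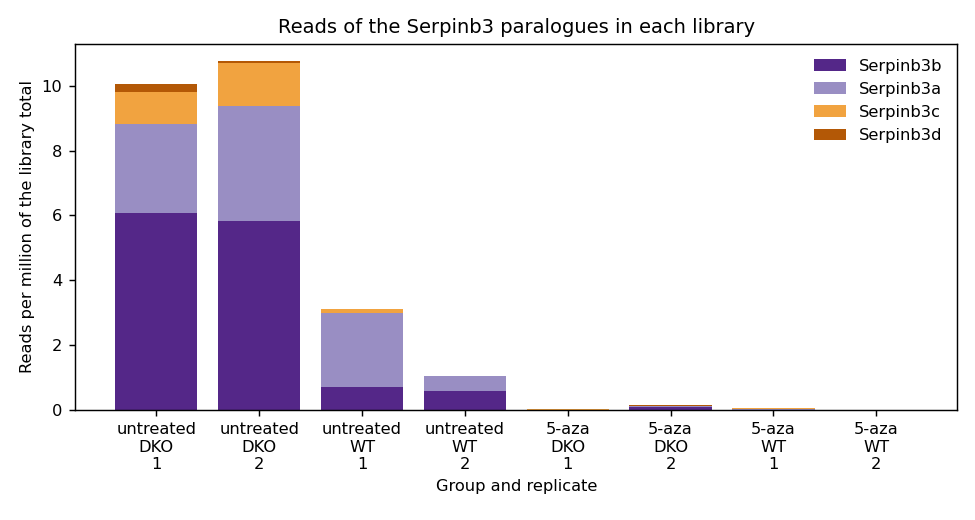
Reads of the 4 Serpinb3 paralogues as RPM, scaled to the library total, stacked by gene, for each library. The untreated DKO bars reach 10.04 and 10.75, the untreated WT bars 3.11 and 1.05, and the bars of the 5-aza-treated mice stay at 0.137 or below.

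Serpinb8, whose human counterpart inhibits the convertase furin and is required for normal cohesion of the outer epidermis, was the second most abundant member. It measured 3.97 and 4.94 FPKM in untreated DKO, against 1.92 and 1.97 FPKM in untreated WT. The groups did not overlap, and the WT libraries were nearly equal. The mean was 2.29 times as high in DKO, with a log2 difference of 0.88 ± 0.12 (SE, n = 2 each). Leaving out any 1 library gave 0.75 to 1.01. In the authors' deposited table, its log2 fold change, turned to DKO over WT, was 1.17 with an adjusted p of 3.68e-08.

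Serpinb2, the plasminogen activator inhibitor PAI-2 that blocks urokinase, measured 0.679 and 1.09 FPKM in untreated DKO, against 0.556 and 0.191 FPKM in untreated WT. The lower DKO library and the higher WT library were close. The log2 difference was 0.46 ± 0.17 (SE, n = 2 each), and 0.27 without WT replicate 2 and 0.30 without DKO replicate 2. Of the 150-base windows of its transcripts, 5.5% also occurred in Serpinb10.

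Serpinb12, an inhibitor of trypsin-like proteases, and Serpinb7, whose human counterpart is lost in a palmoplantar keratosis, did not separate the genotypes. Serpinb12 was at 0.563 and 1.09 FPKM in untreated DKO, against 0.875 and 0.299 FPKM in untreated WT, a log2 difference of 0.21 ± 0.23 (SE, n = 2 each). Serpinb7 was at 0.180 and 0.545 FPKM in untreated DKO, against 1.18 and 0.234 FPKM in untreated WT, a log2 difference of -0.28 ± 0.30 (SE, n = 2 each). Serpinb7 alone of the 8 fitted members had a negative difference. Its sign rested on WT replicate 1, without which the difference was 0.13, and that of Serpinb12 rested on WT replicate 2, without which it was -0.05.

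Serpinb5, or maspin, which has the serpin fold but is not known to inhibit proteases, was the most abundant member in every library. It measured 6.07 and 6.97 FPKM in untreated DKO, against 5.05 and 4.29 FPKM in untreated WT. All DKO values lay above all WT values, yet the ratio of the means was only 1.40, and the log2 difference was 0.41 ± 0.12 (SE, n = 2 each). Together Serpinb5 and Serpinb8 gave 84.1% and 82.2% of the reads of the 9 genes in untreated DKO, against 82.7% and 93.3% in untreated WT.

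Over the 8 fitted members the median log2 difference was 0.48, with 7 of 8 positive, against 0.01 and 53.8% positive over all 17448 genes. Since the genes were selected on these differences, nothing is read from that either. Within a genotype most members differed in the same direction between replicates, by unequal amounts. DKO replicate 2 was above DKO replicate 1 for 7 of the 9, and WT replicate 1 was above WT replicate 2 for 7 of the 9, by 5.07 times for Serpinb7, 4.72 times for Serpinb3a, 2.93 times for Serpinb12 and 2.90 times for Serpinb2, but 1.23 times for Serpinb3b. Among 18 genes of the suprabasal epidermis, such as the keratins Krt1 and Krt10 and the cornified envelope gene Lor, 17 were higher in DKO replicate 2 than in DKO replicate 1, and 17 were higher in WT replicate 1 than in WT replicate 2. The same 2 counts were 10 and 6 of 15 genes of activated keratinocytes. Of 20 protease and plasminogen activation genes they were 13 and 8. The shares over all genes were not counted. The sum of the 5 suprabasal markers was 162 and 284 FPKM in untreated DKO, against 289 and 109 FPKM in untreated WT, so it overlapped between genotypes. The part of suprabasal cells in the spread of Serpinb3a, Serpinb12, Serpinb7 and Serpinb2 was not tested, and in RNA from many cells, more cells of a type and more RNA per cell cannot be told apart.

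Markers of several other cell types also differed in sum between DKO and WT in untreated mice. The sum of 11 leukocyte markers was 17.7 to 20.7 FPKM in DKO and 9.79 to 12.2 FPKM in WT. Its difference was carried mostly by Cd74, H2-Aa and H2-Ab1, at ratios of 2.13 to 3.41. Cd68 and Itgam went the other way, at ratios of 0.725 and 0.514, and Lyz2 had a ratio of 1.20. Ptprc, Cd207, Adgre1, Csf1r and Cd3e had ratios of 1.76 to 3.47. The sum of 4 mast cell markers was 2.49 to 2.79 FPKM in DKO and 0.340 to 1.20 FPKM in WT. The sum of 6 dermal papilla markers was 106 to 111 FPKM in DKO and 202 to 224 FPKM in WT. The sum of 7 basal and outer root sheath markers was 799 to 877 FPKM in DKO and 420 to 511 FPKM in WT. That sum was carried by the keratins Krt5, Krt14 and Krt15, at ratios of 1.68 to 2.62, whereas Itga6, Itgb4, Col17a1 and Trp63 had ratios of 1.02 to 1.14 and the median log2 difference of the list was 0.14. The 4 endothelial markers summed to 1.86 to 2.54 FPKM in DKO and 1.09 to 1.24 FPKM in WT, and the 5 melanocyte markers to 33.4 to 36.0 FPKM in DKO and 26.9 to 27.3 FPKM in WT. The 6 inner root sheath markers overlapped in sum, at 258 to 391 FPKM in DKO and 226 to 270 FPKM in WT, and differed in direction: Krt71, Krt27 and Tchh had ratios of 2.46 to 4.47, Gata3 one of 0.966, Krt25 one of 0.455 and Krt28 one of 0.0342. None of these markers was at 0 in all 4 libraries, and the part of these cells in the Serpinb differences was not tested.

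After 5-aza the genes of the cluster divided into those still read and those almost unread. Serpinb5 and Serpinb8 gave 98.1% to 99.2% of the reads of the 9 genes in the 4 libraries. The 4 Serpinb3 paralogues together had 1 and 8 reads in 5-aza DKO, against 2 and 0 reads in 5-aza WT. Only Serpinb8, Serpinb5 and Serpinb2 passed the filter on low reads. A count of 0 allows up to 3 reads. A genotype difference in Serpinb3a, Serpinb3b, Serpinb3c, Serpinb3d, Serpinb7 and Serpinb12 was therefore not detectable on so few reads, although these libraries were deeper than the untreated ones.

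Serpinb8 measured 2.35 and 2.36 FPKM in 5-aza DKO, against 1.45 and 1.53 FPKM in 5-aza WT. The groups did not overlap and both pairs of replicates were tight, at a ratio of 1.58 and a log2 difference of 0.43 ± 0.07 (SE, n = 2 each). In the authors' deposited table its adjusted p was 0.0181, where 0.708% of all listed genes passed 0.05. Serpinb2 measured 0.1004 and 0.1631 FPKM in 5-aza DKO, against 0.0588 and 0.0736 FPKM in 5-aza WT, on 20 and 48 reads in DKO and 14 and 17 reads in WT. Its log2 difference was 0.09 ± 0.04 (SE, n = 2 each), and 0.05 without DKO replicate 2. Serpinb5 measured 5.85 and 3.81 FPKM in 5-aza DKO, against 2.71 and 4.35 FPKM in 5-aza WT. Its groups overlapped, with a log2 difference of 0.36 ± 0.26 (SE, n = 2 each). The difference was 0.11 without DKO replicate 1, 0.62 without DKO replicate 2, 0.10 without WT replicate 1 and 0.63 without WT replicate 2. The higher library was replicate 1 in DKO and replicate 2 in WT. Over the genes fitted after 5-aza, deviations of same-numbered libraries from their group means had a correlation of -0.588. The part of that pattern in the overlap of Serpinb5 was not tested.

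Both DKO libraries lay above both WT libraries for 2 of the 9 members after 5-aza, Serpinb8 and Serpinb2. These are 2 of the 3 members that passed the filter there, where the same held for 28.1% of 16990 genes. The median over the 3 fitted members was 0.36, against 0.03 and 62.7% positive over all genes. limma called 0 genes (0%) after 5-aza, with 1133 genes higher and 387 lower in DKO at an unadjusted p under 0.05. On recovered reads, limma's voom also called 0 genes at an adjusted p under 0.05. For the same reason as before, nothing is read from these counts. The difference between the genotype effects in untreated and in 5-aza-treated mice was not tested, since the tables were made separately.

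Set side by side and not tested, the Serpinb3 family was low after 5-aza in both genotypes. It had 0.0597 and 0.340 RPM, here scaled to the reads in listed genes, in 5-aza DKO, against 16.7 and 17.8 in untreated DKO. In WT it had 0.108 and 0 after 5-aza, against 5.57 and 1.70 in untreated mice. The sum of the 5 suprabasal markers was low in the same libraries, as was that of the fibroblast markers. Sums of leukocyte, mast cell, dermal papilla, endothelial, and basal and outer root sheath markers were also lower after 5-aza in both genotypes. Those of hair matrix and shaft, inner root sheath and melanocyte markers overlapped with the untreated sums or were higher. All these sums are FPKM, scaled to a library total that only after 5-aza included unaligned and low-quality reads. They were not rescaled to the reads in listed genes. The suprabasal sum was 6.13 to 12.1 FPKM in 5-aza DKO and 3.00 to 4.14 FPKM in 5-aza WT. In untreated mice it came mostly from Krt1 and Krt10, which with Krtdap had lower means after 5-aza in both genotypes. Ivl went the other way, with means of 2.98 FPKM in 5-aza DKO and 1.05 FPKM in untreated DKO. In WT its means were 1.97 FPKM after 5-aza and 1.39 FPKM in untreated mice. Lor had a higher mean after 5-aza in DKO and a lower one in WT. Its WT direction rested on untreated replicate 1, at 5.57 FPKM against 0.346 FPKM in untreated replicate 2. In 5-aza WT it was at 0.417 and 0.332 FPKM. The treatment, the kit and the make-up of the sorted cells cannot be told apart in these values.

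**Figure D3:**
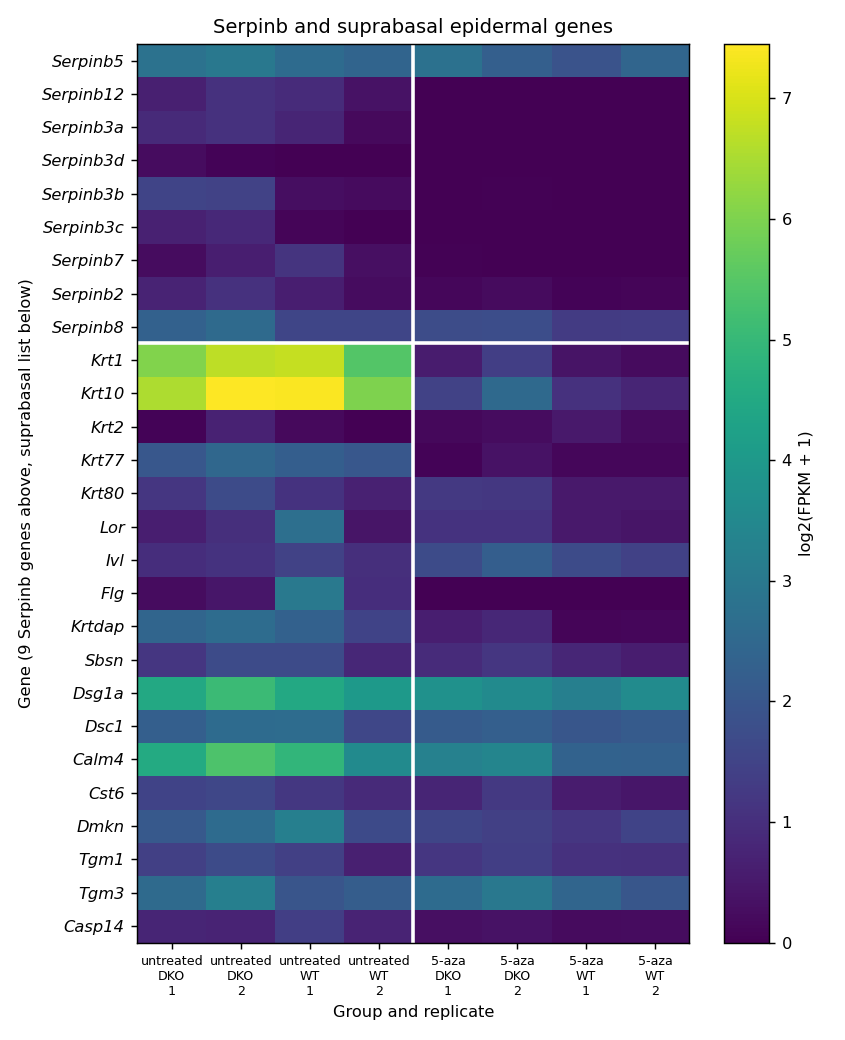
Level, as log2(FPKM + 1), of the 9 Serpinb genes (above the white line) and of 18 suprabasal epidermal genes (below it) in each library; the vertical line separates untreated from 5-aza-treated mice. Krt1 and Krt10 are dim after 5-aza and bright in the 4 untreated libraries, and Serpinb3a, Serpinb3b, Serpinb3c, Serpinb7 and Serpinb12 are dark in all 4 libraries of 5-aza-treated mice.

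To compare levels between genes, FPKM was also taken on merged exon length, counting each exonic base of a gene once, because the deposited gene length counts bases once for every transcript. On that scale the order in untreated DKO was Serpinb5 (19.9 ± 1.96 FPKM, SD, n = 2), Serpinb8 (8.48 ± 1.31 FPKM) and Serpinb3b (3.53 ± 0.101 FPKM), each apart from the next. Serpinb3a, Serpinb2 and Serpinb12 followed at means of 1.93, 1.89 and 1.51 FPKM and did not differ beyond their spread, and Serpinb3c (0.700 FPKM) and Serpinb7 (0.418 FPKM) overlapped below them, with Serpinb3d last at 0.114 FPKM. In untreated WT, Serpinb5 (14.3 FPKM) and Serpinb8 (3.70 FPKM) again led. There Serpinb3b, at 0.377 ± 0.0545 FPKM (SD, n = 2), ranked seventh, after Serpinb12, Serpinb3a, Serpinb7 and Serpinb2 at 1.07 to 0.802 FPKM, all of which overlapped their neighbours. After 5-aza, Serpinb5 was at 14.8 FPKM in DKO and 10.8 FPKM in WT, Serpinb8 at 4.48 FPKM in DKO and 2.84 FPKM in WT, and Serpinb2 at 0.283 FPKM in DKO and 0.142 FPKM in WT. The other 6 lay at 0.0254 FPKM or below and could not be ordered. Only after 5-aza did the library total behind FPKM include unaligned and low-quality reads, so these levels are not set against untreated ones. Scaled to reads in listed genes, Serpinb5 had 116 and 79.4 RPM in 5-aza DKO, against 84.7 and 96.7 in untreated DKO. Serpinb8 had 50.6 and 53.4 in 5-aza DKO, against 60.1 and 74.5. In WT, Serpinb5 had 58.1 and 95.3 RPM after 5-aza, against 76.1 and 58.1 in untreated mice. Serpinb8 had 33.8 and 36.3 there, against 31.5 and 28.9.

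The other clade B serpins inside the cluster also had higher means in untreated DKO. Serpinb13, an inhibitor of cathepsins, measured 0.888 and 1.59 FPKM in untreated DKO, against 0.201 and 0.108 FPKM in untreated WT (log2 difference 0.94 ± 0.16, SE; limma adjusted p = 0.194). Serpinb10 measured 0.809 and 0.746 FPKM in untreated DKO, against 0.178 and 0.335 FPKM in untreated WT (log2 difference 0.50 ± 0.08, SE; limma adjusted p = 0.179). Serpinb11 measured 0.195 and 0.443 FPKM in untreated DKO, against 0.0946 and 0.0316 FPKM in untreated WT (limma adjusted p = 0.381). None of the 3 passed limma's adjusted threshold, all 3 were higher at an unadjusted p under 0.05, and the authors' deposited table gives Serpinb13 (adjusted p = 0.00031) and Serpinb10 (0.0358) below 0.05. After 5-aza, Serpinb13 was at 0.571 and 0.501 FPKM in DKO, against 0.194 and 0.238 FPKM in WT (limma adjusted p = 0.350), and in the authors' deposited table its adjusted p was 0.617. Serpinb10 was then at 0.455 and 0.250 FPKM in DKO, against 0.280 and 0.166 FPKM in WT (limma adjusted p = 0.731), with overlapping groups.

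The genes beside the cluster and the clade B serpins elsewhere were counted in the same way. The 5 protein-coding genes listed within 1 Mb, all on the Serpinb5 side (Zcchc2, Phlpp1, Bcl2, Kdsr and Vps4b), had a median log2 difference of 0.11 in untreated mice and 0.19 after 5-aza, with 0 called by limma or in the authors' deposited table in either. In untreated mice their limma adjusted p-values ran between 0.513 and 0.831. Kdsr, the smallest, measured 3.23 and 3.57 FPKM in untreated DKO, against 2.92 and 2.77 FPKM in untreated WT. At an unadjusted p under 0.05 there were 0 in untreated mice and 1 after 5-aza, Vps4b. Of the clade B serpins of chromosome 13, 10 were listed and 4 passed the filter in each table, with medians of -0.00183 in untreated mice and 0.13 after 5-aza and 0 called by either test. At an unadjusted p under 0.05 there were 0 of these in untreated mice and 2 after 5-aza, Serpinb1b and Serpinb1c, both higher in DKO. Among the 6 that did not pass in untreated mice were low genes with more RNA in DKO, named after their values were seen. Serpinb1c measured 0.139 and 0.178 FPKM in untreated DKO, against 0.0169 and 0.0169 FPKM in untreated WT, and Serpinb6e measured 0.435 and 0.137 FPKM in untreated DKO, against 0.0235 and 0 FPKM in untreated WT.

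**Figure D4:**
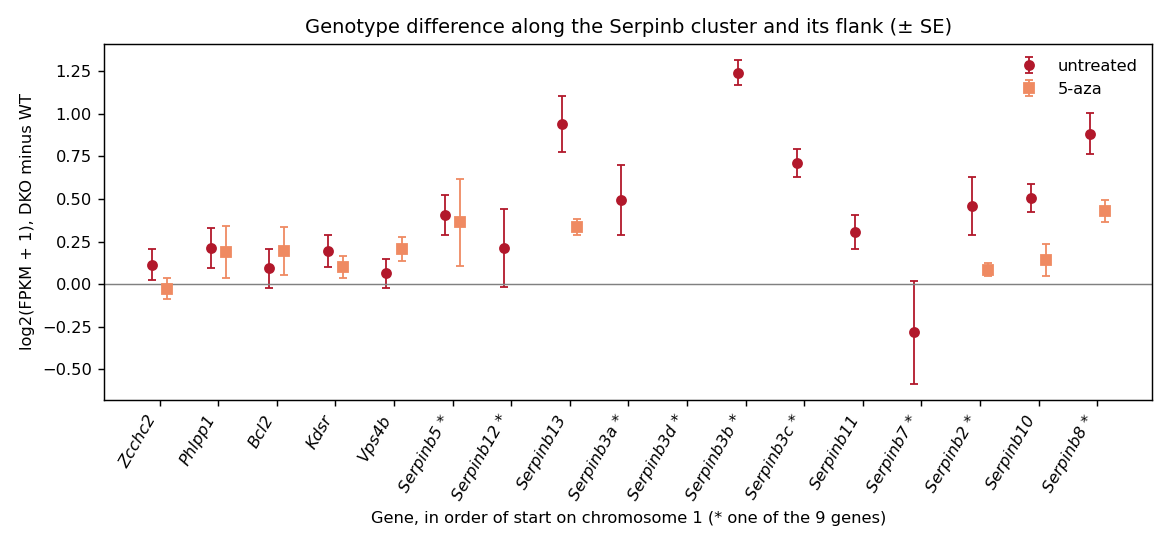
Difference in log2(FPKM + 1), DKO minus WT, with its SE, for genes in their order along chromosome 1, from the flank through the Serpinb cluster, in untreated mice (circles) and after 5-aza (squares); genes that did not pass the filter have no point. The flanking genes lie between -0.03 and 0.21, and in untreated mice the highest points are Serpinb3b at 1.24, Serpinb13 at 0.94 and Serpinb8 at 0.88.

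Among proteases and plasminogen activation genes, the targets and partners of these inhibitors, 19 of 22 were tested in untreated mice and limma called 0, with 7 higher and 1 lower at an unadjusted p under 0.05. The smallest p-values belonged to the mast cell chymase Cma1, at 0.982 and 0.975 FPKM in untreated DKO against 0.102 and 0.265 FPKM in untreated WT (limma adjusted p = 0.120), to the lysosomal protease Ctss (0.154) and to the membrane protease Prss8 (0.165). The authors' deposited table called none of them in untreated mice. After 5-aza, 16 were tested and limma called 0, with 5 higher and 0 lower at an unadjusted p under 0.05. The kallikrein Klk7, which cleaves the junctions of shedding skin cells, measured 1.37 and 3.12 FPKM in 5-aza DKO, against 0.505 and 0.220 FPKM in 5-aza WT (limma adjusted p = 0.437), and was the only one below 0.05 in the authors' deposited table (0.000928).

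Genes of activated keratinocytes, which wounded or inflamed skin turns on, had a median log2 difference of 0.88 over 9 tested in untreated mice, 8 of them positive, against 0.01 over all genes. limma called 0 of the 9, with 6 higher and 0 lower at an unadjusted p under 0.05, and the authors' deposited table gave 5 as higher in DKO (Krt6a, Krt6b, Krt16, Sprr1a and Stfa3). The keratin Krt16 measured 17.8 and 25.3 FPKM in untreated DKO, against 2.31 and 1.72 FPKM in untreated WT (limma adjusted p = 0.0777). After 5-aza the median was 1.03 over 5 tested, with limma at 0 and all 5 higher at an unadjusted p under 0.05. Krt16 was then at 3.496 and 6.450 FPKM in 5-aza DKO, against 1.73 and 1.25 FPKM in 5-aza WT (limma adjusted p = 0.405).

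Suprabasal epidermal genes had a median log2 difference of 0.28 over 17 tested in untreated mice, 12 of them positive, and 0.37 over 18 after 5-aza, 16 of them positive. limma called 0 in both, with 2 higher at an unadjusted p under 0.05 in untreated mice and 9 higher after 5-aza. In the authors' deposited table, Tgm3, a transglutaminase of the hair and epidermis, was higher in untreated DKO, and the keratins Krt80 and Krt10 with Krtdap and Calm4 were higher in 5-aza DKO. Calm4, a calcium-binding protein of differentiating keratinocytes, measured 8.73 and 9.50 FPKM in 5-aza DKO, against 4.119 and 4.003 FPKM in 5-aza WT (limma adjusted p = 0.213).

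The genes with patterns most like those of Serpinb3b and Serpinb5 were found by the root-mean-square distance between log2(FPKM + 1) values over the 8 libraries, each centred on the mean of its own table, among 15809 genes. Nearest to Serpinb3b were Dio3os (0.0879), Rps4l (0.141), Slc10a4 (0.146), Cpa4 (0.149) and Gm42047 (0.157), against a median distance of 0.443. Of the other members, Serpinb3c (0.196) and Serpinb8 (0.208) were nearest to it and Serpinb7 (0.582) the farthest. A gene without any change would be at 0.439 from Serpinb3b. After 5-aza Serpinb3b had 0 and 5 reads in DKO and 0 and 0 reads in WT. Its pattern therefore rests on the untreated libraries. Nearest to Serpinb5 were Fgfbp1 (0.0757), Slco3a1 (0.0795), Creb5 (0.0950), Arl15 (0.0973) and Lrrc75aos2 (0.103), against a median of 0.282. Its nearest fellow member was Serpinb2 (0.227), little nearer than a gene without any change would be (0.274). The centred values of Serpinb5 spread most between replicates after 5-aza, at 0.437 and -0.073 in DKO and -0.446 and 0.082 in WT. Its 5 nearest genes shared that spread. These distances describe 8 libraries, which differ in depth and in the markers of other cells also within a group.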

How the data were processed

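Gene expression of 8 libraries in 4 groups was read from 2 tables, each with a DKO and a WT group. Per the submitters' processing notes, reads went through Trim Galore, STAR, HTSeq and DESeq2 on GRCm38 (mm10). Versions and the strand setting of the counting are not given in the sources used here. The library columns hold FPKM as the authors scaled them: the deposited FPKM times the deposited length and the library total, read from the size of 1 step, is a whole number of reads to within 0.001 for every gene. The deposited length, of unit other, is the length in bases behind the FPKM and equals exon lengths added over all transcripts in 97.58% of matched untreated genes and 97.53% after 5-aza. The deposited mean column is a signal, the authors' mean of scaled reads. The deposited fold change and its SE are log2 values of WT over DKO, given here with the opposite sign. The authors' statistic is a score, and the deposited p-value columns hold p and adjusted p, all from the authors' DESeq2 test.

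Reads were recovered from FPKM, which gave depth. Rows that name no gene (36.3% of reads outside features in untreated mice and 37.2% after 5-aza, 1.26% and 0.846% ambiguous, 2.65% and 4.52% not uniquely placed, and, after 5-aza, 11.8% not aligned and 4.91% of low quality) stayed out of the tests. Genes were fitted where 2 or more libraries had the equivalent of 10 reads at median depth and all together had 15, within each table, by limma 3.58.1 (R 4.3.3) with a variance trend on log2(FPKM + 1), two-sided, with Benjamini-Hochberg adjustment and a threshold of 0.05. The script was tested on simulated data. P-values measure only the spread between these libraries, which may be technical, and intervals and floors cover counting error only. Alternatives were another pseudocount, no filter, other scalings, no trend, voom on recovered reads, a replicate block, leaving out each library and, chosen after seeing the data, merged exon length and a crossed block. The 9 genes and the gene lists were chosen with earlier results of these data known. Named besides the 9 were, per list, genes past limma's threshold or otherwise up to 3 with the smallest p. Genes called in the authors' deposited table were named after their values were seen. Genes of the lists without a row were not analysed here.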

Additional observations from a re-analysis of the deposited data

How the results depend on the processing

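In untreated mice limma's count of 1 called gene became 7 with a pseudocount of 0.1, 0 with no filter, 0 with no variance trend, 148 with voom on recovered reads and 36 with merged exon length, and 0 to 1 when a library was left out. Serpinb8 and Serpinb3b were called by voom (adjusted p = 0.0138 and 0.00735) and Serpinb3b with merged exon length (0.0297). The activated keratinocyte list had 3 genes called by voom and 1 with merged exon length. The replicate numbers share only a number: same-numbered libraries had a correlation of deviations of 0.033 in untreated mice and -0.588 after 5-aza, and a replicate block called 13 genes in untreated mice and 0 after 5-aza. Crossed pairing after 5-aza, chosen after seeing the data, called 14, 1 of them in the suprabasal list. Without a filter, 8 of 9 members had a positive difference after 5-aza. The cause of these changes was not tested. Of 94 alternative values of the 8 fitted members in untreated mice, 81 moved by less than the replicate spread and 2 changed sign (Serpinb12 and Serpinb7, each without 1 WT library). After 5-aza it was 31 of 39, with 0 sign changes. Many of these outcomes were fixed in advance, so the counts do not measure robustness. No filter, no trend and a replicate block leave a member's difference unchanged. Leaving out 1 of 2 libraries cannot move it beyond the replicate spread as defined here. The 13 values in untreated mice and 8 after 5-aza that moved further came from another pseudocount, other scalings, voom or merged exon length. The 6 members with 5 or fewer reads per library after 5-aza are limited by those few reads, in libraries deeper than the untreated ones. All comparisons are limited by 2 libraries per group.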
